A study of Mus musculus with 4 samples.

Results

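The DelBs allele removes most of the Epha4 domain but keeps a 200 kb segment that spans the downstream border of the domain. The contact map of DelBs was compared with that of wild type (WT). Both maps were made by capture Hi-C from the distal part of E11.5 mouse limb buds. In this assay crosslinked chromatin is cut and religated, probes enrich one region, and sequencing counts the ligations between any 2 stretches of it. The DelBs embryos were homozygous mutants and the controls wild type, with 1 library for each group. The sources used here do not say whether a library pooled embryos. The series also holds 1 library each of homozygous DelB embryos, which lack the segment too, and of homozygous InvF embryos, which carry an inversion upstream and keep the deleted interval.

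The maps cover chr1:71000001-81000000 (build mm9) in bins of 10 kb. The interval missing from DelBs was located from the counts at chr1:76390001-77860000, which is 1470 kb. The kept segment, which DelB lacks, was chr1:77860001-78060000. All pairs of bins without a deleted bin were taken, 364231 of 500500. Of these, 169246 join opposite sides of the deletion: 10780 pair an upstream bin with the kept segment and 158466 pair an upstream bin with sequence beyond it. The other 194985 lie on one side and serve as background, since the deletion leaves their distance as it was. The distance left between bins on the DelBs allele, called the remaining distance below, is 1470 kb less than in WT for pairs across the deletion.

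Chromosomes of mammals fold into topologically associating domains, stretches whose sequences meet each other more often than they meet their neighbours. Many borders between domains bind the protein CTCF, which halts loop extrusion by cohesin, and such borders limit which enhancers reach which promoters. Epha4 encodes an ephrin receptor tyrosine kinase that is expressed in the limb bud, and its enhancers lie in a large domain. Pax3, which encodes a transcription factor of muscle and neural crest precursors, lies in the neighbouring domain. From the published description of these alleles, the deletions remove Epha4, and the alleles differ in whether the border towards Pax3 is kept. RefSeq, on the GRCm38 assembly, lists 0 protein-coding genes between Epha4 and Pax3. Gene positions were not placed on the mm9 map here.

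The WT library held 5155274 counts and the DelBs library 5832748. DelBs counts were brought to WT depth with a factor of 1.50, taken from pairs 20 kb to 2 Mb apart that no rearrangement of the series touches. With 1 library per genotype, the spread between embryos is not known and no test between genotypes was possible. Intervals are at the 95% level and cover counting error alone. The deleted bins, without the last, held 21303 counts in DelBs, or 1.23% of the WT level. Taking that share of WT counts off left each of the 5 contact values of the 500 kb flank below inside its counting interval.

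Contacts between the 2 sides of the deletion rose in DelBs. Pairs across the deletion held 3.35% of the counts of all kept pairs in WT and 6.29% in DelBs. The 500 kb upstream of the deletion, chr1:75890001-76390000, met the kept segment with 9016 counts in WT and 54630 in DelBs. After scaling, DelBs stood at 4.05 times WT (3.96 to 4.14). With the 500 kb beyond the segment, chr1:78060001-78560000, the same flank had 9149 counts in WT and 45636 in DelBs, a ratio of 3.33 (3.26 to 3.41). Blocks of the same shape moved in steps of 10 kb along either side of the deletion gave ratios of 0.785 to 1.10 for the first shape and of 0.851 to 1.34 for the second, over 615 overlapping placements each. Both ratios at the deletion lay above all of these placements. In InvF, where the interval is present, the corresponding ratios to WT were 1.06 and 1.05.

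The rise was smaller than the shorter distance alone would give. The decay of counts with distance on one side of the deletion, taken in each library, predicted a ratio of 12.7 for the segment and of 6.77 for the stretch beyond it. In WT these pairs already stood far above the level of their full distance. There the upstream flank met the segment at 3.94 times the expected level (3.86 to 4.02). It met the stretch beyond at 2.14 times (2.10 to 2.19). Expected levels are averages over one-side pairs of the same library and distance. In InvF these values were 3.52 and 2.09. In DelBs, at the remaining distance, they were 1.26 (1.25 to 1.27) and 1.05 (1.04 to 1.06).

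Whether DelBs stood above or below its expected level depended on how far upstream the flank reached. With 250 kb the values were 0.947 for the segment and 0.647 beyond it, and with 100 kb they were 0.802 and 0.505. With a coverage factor for each bin the 500 kb flank stood at 1.03 and 0.836. With the deposited KR-balanced values, whose balancing included the nearly empty deleted bins, it stood at 0.920 and 0.861. The segment had the higher value in all 4 of these settings.

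Followed by remaining distance over all upstream bins, pairs with the kept segment began at the background level and rose above it. At 10 to 100 kb they averaged 148.5 counts per pair in DelBs, 0.968 of the expected level (0.947 to 0.989), and at 110 to 200 kb 58.2 counts, 0.892 of it. From 310 to 500 kb the average was 50.5 counts per pair, 1.67 times the expected level (1.65 to 1.70). From 710 to 1000 kb it was 39.2 counts, or 3.31 times (3.27 to 3.35). At WT depth, counts with the segment fell from 52.1 per pair at 110 kb to 34.8 at 200 kb, where one-side pairs had 56.7 and 36.2. They were still at 31.5 at 860 kb, where one-side pairs had 7.74, and then fell to 17.5 at 950 kb and 11.9 at 1 Mb. The level stretch thus ended before 1 Mb. At 1010 to 1500 kb, where all upstream bins lie past the upstream border described below, the segment was at 7.65 counts per pair and 1.10 times the expected level.

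Pairs with sequence beyond the segment lay lower at short remaining distance. At 210 to 300 kb they averaged 21.7 counts per pair, 0.507 of the expected level (0.478 to 0.536), where segment pairs at the same distance averaged 48.7, or 1.08 times (1.05 to 1.10). At 310 to 500 kb they were at 0.631 (0.617 to 0.646), at 510 to 700 kb at 1.06 and at 710 to 1000 kb at 1.36. The beyond pairs at 210 to 300 kb use only the 100 kb next to the deletion, while the segment pairs reach 300 kb upstream. For the 50 kb next to the deletion, the segment stood at 0.503 from 77960001 to 78010000 and at 0.573 in its last 50 kb. The first 50 kb beyond the segment stood at 0.580 and the following 50 kb at 0.468. In each of the 30 steps of 10 kb from 210 to 500 kb, the beyond pairs were below and 27 of the 30 segment averages were above the one-side average. The segment average was above the beyond average at all 80 distances from 210 to 1000 kb, but at 27 of the 100 from 1010 to 2000 kb. For the same pairs in WT it was above at all 80 as well, and at 54 of the 100.

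**Figure D1:**
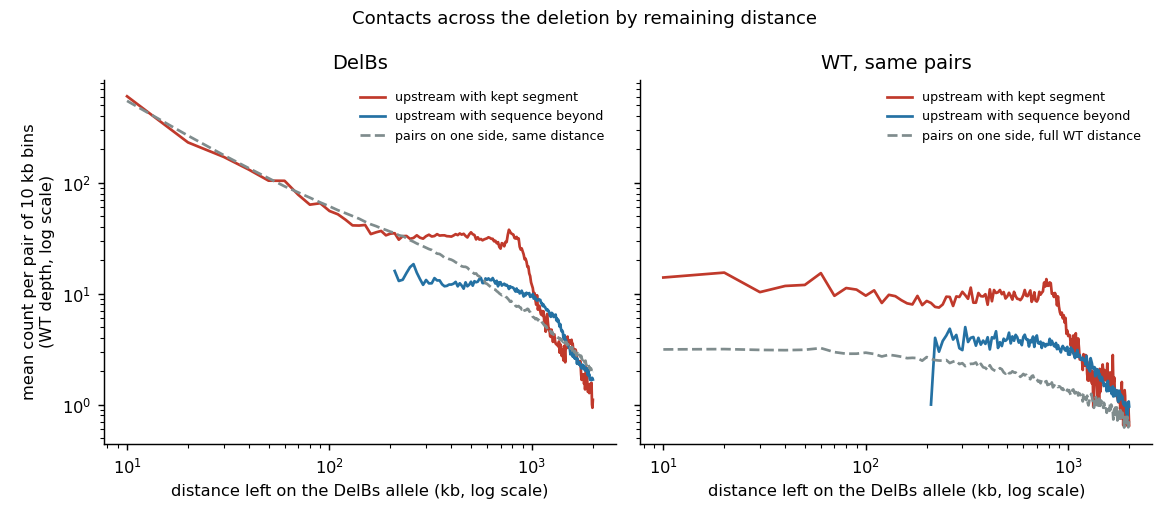
Mean count per pair of 10 kb bins at WT depth (vertical, log scale) against the remaining distance in kb (horizontal, log scale) for DelBs (left) and for the same pairs in WT (right); red lines are pairs with the kept segment, blue lines pairs with sequence beyond it, dashed grey lines one-side pairs at the distance each library has. In DelBs the segment follows the one-side level up to 200 kb and stays between 25.5 and 37.8 from there to 860 kb before it falls to 11.9 at 1 Mb, while the sequence beyond starts below the one-side level.

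The ratio of DelBs to WT was lower at larger remaining distances. For the segment it fell at every step, and was 8.72 at 10 to 100 kb (8.04 to 9.47), 4.40 at 110 to 200 kb, 3.48 at 310 to 500 kb, 2.94 at 710 to 1000 kb and 1.24 at 2010 to 3000 kb (1.17 to 1.32). For the sequence beyond it was 3.92 at 210 to 300 kb, 3.22 at 310 to 500 kb, 3.35 at 510 to 700 kb, 3.16 at 710 to 1000 kb and 1.64 at 2010 to 3000 kb. One-side pairs from 10 to 3000 kb had ratios of 0.942 to 1.09, with the lowest value at 10 to 100 kb. At 1010 to 1500 kb the ratio was 2.73 for the sequence past the segment (2.68 to 2.79) and 2.14 for the segment (2.04 to 2.24). These pairs use different upstream bins, as those of the segment lie farther from the junction. For the same 100 kb windows, 1000 to 1500 kb upstream, the ratios with the segment were 2.06, 2.07, 1.95, 2.01 and 1.76. With the 500 kb beyond it they were 2.07, 2.01, 2.13, 1.77 and 1.70.

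Since both kinds of pair exist at the same remaining distance, the segment could be set against the sequence beyond it without any model of decay. For the upstream 500 kb, at remaining distances of 210 to 690 kb, a pair with the segment had 2.42 times the counts of an equally distant pair beyond it in DelBs (2.35 to 2.48). The same pairs, 1470 kb farther apart, gave 2.36 in WT (2.23 to 2.49) and 2.65 in InvF (2.52 to 2.79). The intervals of DelBs and WT overlapped. At equal distance, however, pairs with the segment use upstream bins farther from the junction than pairs beyond it do. Over the same upstream bins, each partner taken against its expected level, the segment stood at 1.51 times the first 200 kb beyond it in DelBs (1.49 to 1.54) and at 1.89 times in WT (1.82 to 1.96). By that measure, added after the data were seen, the drop was smaller in DelBs than in WT. The measure rests on averaged expected levels, taken at distances 1470 kb longer in WT, and its intervals leave out any error in them. At equal distance and with a coverage factor for each bin it was 2.52 in DelBs and 2.54 in WT. The equal-distance drop was smaller for upstream bins next to the deletion. For the first 100 kb it was 1.17 in DelBs (1.03 to 1.32) and 1.36 in WT (1.03 to 1.80), and for the first 250 kb 1.92 and 2.02. Windows of the same shape on one side of the deletion gave values of 0.250 to 5.74 in DelBs, with a median of 1.01, and 45 of the 615 overlapping windows reached 2.42.

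The kept segment holds a WT border. The insulation score, which is the log2 of the mean count spanning a position within 200 kb relative to the library mean, had a minimum after 77940000 in WT, and the minimum lay at the same bin in DelBs. Its drop below the surroundings was 1.13 in WT and 1.10 in DelBs on the log2 scale. The 80 kb before this border, chr1:77860001-77940000, lie on the Epha4 side of it and the 120 kb after it, chr1:77940001-78060000, on the other side. With the part before the border the upstream flank had 5419 counts in WT and 34788 in DelBs, a ratio of 4.29 (4.17 to 4.41). With the part after it the flank had 3597 and 19842, a ratio of 3.69 (3.56 to 3.82). At the remaining distance the part before the border stood at 1.54 times the expected level in DelBs (1.52 to 1.56) and the part after it at 0.949 (0.935 to 0.962). WT had 5.61 and 2.72 at the full distance.

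Set at equal distance, a pair with the part before the border had 2.22 times the counts of a pair with the part after it in DelBs (2.17 to 2.27). WT gave 2.22 (2.11 to 2.34) and InvF 2.32 (2.21 to 2.43). Over the same upstream bins, each part against its expected level, the quotient was 1.62 in DelBs (1.60 to 1.65) and 2.06 in WT (1.97 to 2.15), and with bin coverage counted in 2.49 and 3.32. The coverage factor takes in the border itself, because most of the one-side pairs it was fitted on span the border for bins before it. At equal distance, the part after the border had 1.65 times the counts of pairs beyond the segment in DelBs (1.61 to 1.70) and 1.59 in WT (1.50 to 1.68). Those pairs again use different upstream bins. Against expected levels with the whole upstream 500 kb in DelBs, the part after the border stood at 0.949. The first 200 kb beyond the segment stood at 0.831 and the 500 kb beyond it at 1.05. Towards its own downstream side, the segment as a whole met the 500 kb beyond it at 1.04 times WT (1.03 to 1.06). Its 2 parts differed. The part after the border met the 500 kb beyond the segment at 1.02 times WT (1.00 to 1.03). The part before the border, whose contacts with that stretch cross it, stood at 1.16 times (1.13 to 1.19).

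Seen bin by bin, all 20 bins of the segment and all 50 bins of the next 500 kb had over 2 times their WT contacts with the upstream flank. The ratio was highest in the bin at the junction, 77860001 to 77870000, where 672 counts in WT and 6458 in DelBs gave 6.42. It ranged down to 2.81 within the segment and lay between 2.43 and 5.10 beyond it, with medians of 3.71 and 3.32. Of the 40 bins in the segment and the first 200 kb past it, the bin with the highest value for its distance was 77890001 to 77900000, at 2.16 times the expected level. The lowest was 78240001 to 78250000, at 0.519, a bin with a coverage factor of 0.575; with its coverage counted in it stood at 0.762. Corrected in this way, the values fell from 1.65 to 2.01 in the first 3 bins to 0.871 in the bin just past the border and 0.556 in the bin 120 kb from the junction. None of the first 20 bins past the segment was above 1 after this correction, and 8 of the 20 segment bins were, all of them before the border. From distance alone 5 and 13 were, and the bin 77950001 to 77960000, past the border, stood at 1.29. The coverage factor was fitted on one-side pairs, and for bins before the border most of these span it. The corrected values therefore cannot show the border apart from coverage.

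**Figure D2:**
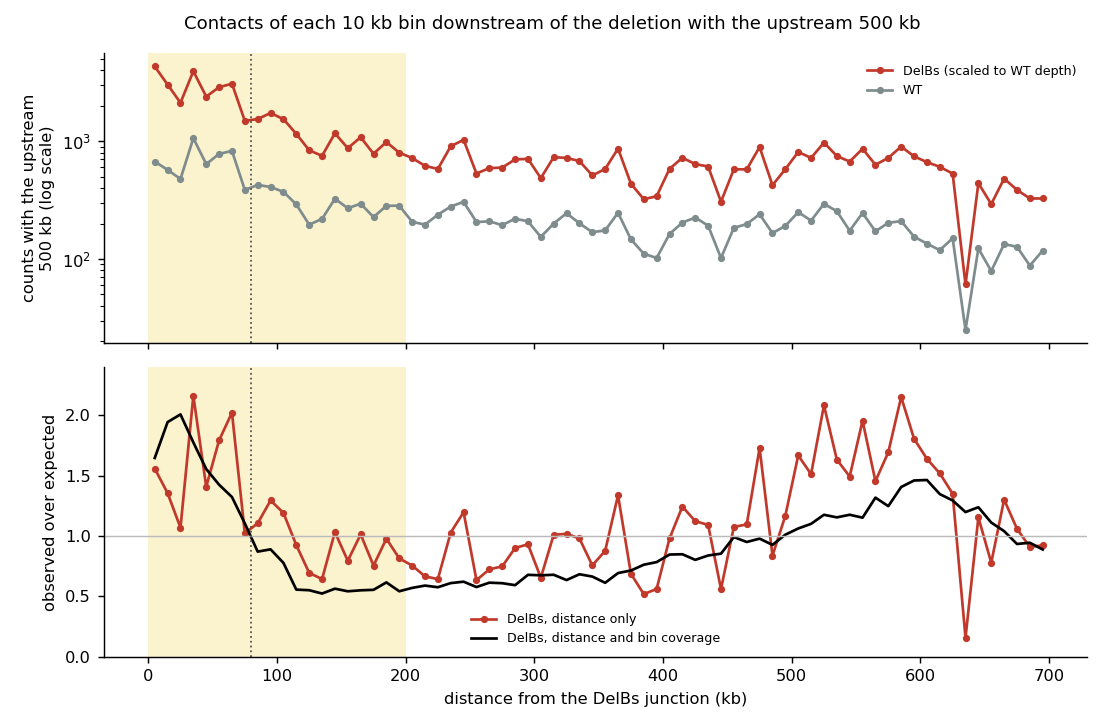
Contacts of each 10 kb bin with the upstream 500 kb against the distance from the DelBs junction in kb; the top panel gives counts at WT depth on a log scale (red DelBs, grey WT), the lower panel DelBs observed over expected from distance (red) and from distance and bin coverage (black). The yellow band is the kept segment and the dotted line its border; the black line drops from 2.01 before the border to 0.524 at 140 kb and then rises, to 0.784 at 400 kb and 1.46 at 610 kb.

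Along the upstream side the contacts kept the shape of the Epha4 domain. In 100 kb windows going upstream from the deletion, the segment met the first window with 13875 counts in DelBs and 1541 in WT, a ratio of 6.02 (5.71 to 6.35). The next 7 windows held between 7635 and 11972 counts in DelBs, and the ratio lay between 3.02 and 4.01. Past 800 kb the counts fell to 5698, 2319 and 2012 per window. In WT the counts were nearly level as well, from 1541 to 2573 over the first 8 windows, and fell to 625 in the window 900 to 1000 kb upstream. The fall lies at the WT border after 75610000, which is 780 kb upstream of the deletion and is the deepest border within 1 Mb on that side, with a drop of 1.49 in WT and 1.37 in DelBs.

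For its distance, the segment met the 200 kb inside this upstream border at 3.79 times the expected level in DelBs (3.74 to 3.84) and the 200 kb outside it at 2.35 times (2.30 to 2.39). The corresponding values in WT were 6.79 and 4.50. Sequence beyond the segment showed a smaller drop there, with 2.48 inside (2.45 to 2.51) and an interval of 2.16 to 2.23 outside in DelBs, and 3.48 and 3.28 in WT. Over the whole 780 kb between the border and the deletion, the part of the segment before its own border stood at 1.91 times the expected level in DelBs (1.89 to 1.93), the part after it at 1.25 (1.23 to 1.26) and the 500 kb beyond at 1.32 (1.31 to 1.33). With bin coverage counted in, these became 1.97, 0.846 and 1.07, so that the part after the border lay below its expected level. The coverage factor takes in the border itself, so this contrast between the parts is not independent of it. For the 500 kb outside the upstream border the uncorrected values were 1.78, 1.60 and 1.69.

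**Figure D3:**
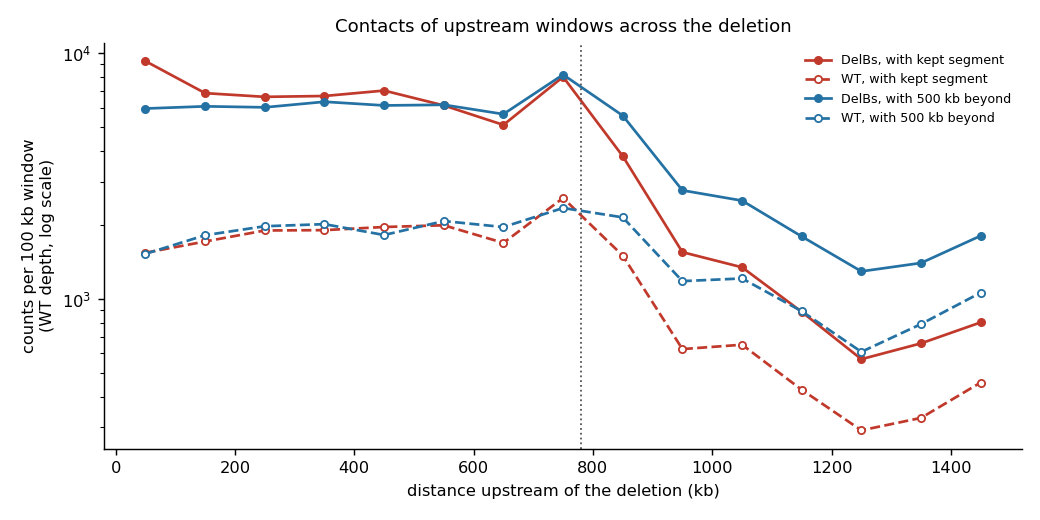
Counts at WT depth (vertical, log scale) of 100 kb windows upstream of the deletion with the kept segment (red) and with the 500 kb beyond it (blue), against the distance upstream in kb; filled points and full lines are DelBs, open points and dashed lines WT. The dotted line marks the border at 780 kb. Counts with the segment fall past this border in both libraries, and in DelBs they are highest in the window next to the deletion. Counts with the 500 kb beyond stay close to those of inner windows up to 900 kb and fall past that. DelBs lies above WT throughout.

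The contact across the deletion that was highest for its distance joined the ends of the shortened domain. By counts and by ratio to WT the block at the junction was higher. It paired 76340001 to 76390000 with 77860001 to 77910000 and held 5138 counts in DelBs, 11.4 times WT and 0.970 of the expected level. Of 400 blocks of 50 kb by 50 kb within 1 Mb of the junction on each side, the 3 highest for their distance paired 75590001 to 75690000, at the upstream border, with 77860001 to 77960000, around the border of the segment. The block of 75640001 to 75690000 with 77860001 to 77910000 held 589 counts in WT and 2432 in DelBs, 2.76 times WT (2.52 to 3.02). It stood at 7.06 times the expected level in DelBs (6.78 to 7.34) and at 14.6 times in WT. The 2 blocks next in rank paired 75590001 to 75690000 with 78410001 to 78460000, near the WT border after 78480000. They stood at 5.80 and 5.54 times the expected level in DelBs and at 5.32 and 5.10 times in WT, and were 4.07 (3.42 to 4.86) and 4.19 (3.49 to 5.07) times as frequent as in WT.

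The lowest 5 blocks all held sequence from 78710001 to 78810000, at 0.277 to 0.300 of the expected level, around and past the WT border after 78720000. With bin coverage counted in they stood at 0.386 to 0.508, and other blocks were then lower. The lowest was 76340001 to 76390000 with 77960001 to 78010000, inside the kept segment, at 0.343. Of the 80 blocks with the segment, 66 were above the expected level, with a median of 1.94, and of the 320 beyond it, 195 were, with a median of 1.20. At 16 of the 19 distances held by both, the median of the segment blocks was the higher one. At equal distance, however, the segment blocks use upstream sequence farther from the junction, so these medians do not compare the same upstream blocks. The 3 exceptions were the largest distances, 1000 to 1100 kb, where the blocks of the segment reach past the upstream border. In WT the medians were higher, at 4.01 and 2.04.

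**Figure D4:**
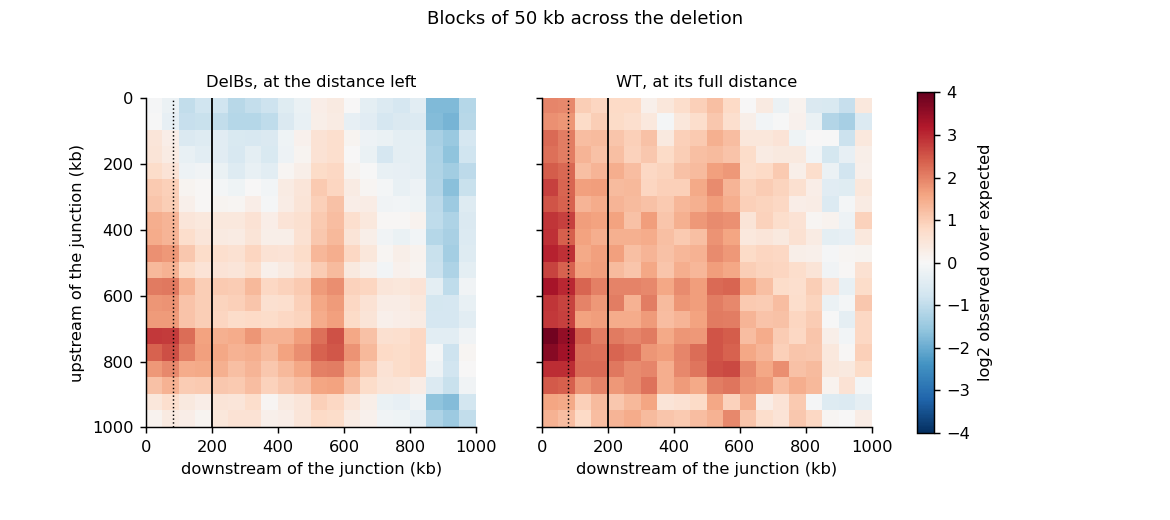
Log2 of observed over expected (colour) for blocks of 50 kb by 50 kb across the deletion in DelBs at the remaining distance (left) and in WT at its full distance (right); axes give kb upstream and downstream of the junction. The full line marks the end of the kept segment and the dotted line its border; the darkest block in both maps lies 700 to 750 kb upstream at the start of the segment, at 7.06 times the expected level in DelBs and 14.6 times in WT.

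Borders outside the deletion were largely kept. WT had 23 insulation minima at least 0.2 deep, 1 of them inside the deleted interval, and 18 of the other 22 had a DelBs minimum within 50 kb. The score at the junction itself was -0.17 in DelBs. In WT it was 0.07 at the upstream end of the deleted interval and -0.28 at the downstream end. The border in the segment was thus the deepest minimum between the upstream border after 75610000 and the one after 78480000 in DelBs, at -0.58 against -0.76 in WT. The scores near the junction take in different sequence in the 2 alleles, because the window of 200 kb spans it.

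Over the whole map, 39 of 130 blocks of 100 kb that pair upstream sequence with the segment were over 1 log2 unit higher in DelBs than in WT, as were 169 of 1365 that pair it with sequence beyond. Over all blocks without a deleted bin 5.95% passed this limit, and on one side of the deletion 1 of 2020 did, which is 0.0495%. Every one of the 15 segment blocks and the 10 beyond blocks with under 500 kb left between them passed it, with median log2 ratios of 1.84 and 1.73. At 500 to 1000 kb 14 of 15 and 35 of 35 passed, at 1000 to 2000 kb 9 of 30 and 66 of 145, and at 2000 to 6000 kb 1 of 70 and 58 of 945. Lower by as much were 0 segment blocks, 1 block beyond (53 counts in WT, 38 in DelBs) and 1 on one side (74 and 48). These are 0.0569% of all blocks without a deleted bin. Counted against the decay of each library at its own distance, 0 of 713 blocks across the deletion were higher and 136 were lower. The rest of the 1495 blocks across it lie too far apart in WT for an expected level and were left out. On one side of the deletion, 1 of 2020 was higher and 2 were lower by that count.

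The authors' deposited table of differences, which covers 73000001 to 79000000, gives a positive score where DelBs is higher. In the authors' deposited table, 1103 of 6760 pairs of upstream bins with the segment (16.3%) and 1425 of 31434 pairs beyond it (4.53%) have a score above 0. Within 500 kb of remaining distance the authors' deposited table has 451 of 810 segment pairs (55.7%) and 19 of 465 beyond pairs (4.09%) above 0. These 2 sets are unlike, since the segment pairs start at 10 kb and the beyond pairs at 210 kb. They also differ in depth at equal distance. From 310 to 500 kb segment pairs averaged 50.5 counts in DelBs and beyond pairs 18.3, while their ratios to WT were 3.48 and 3.22. On one side of the deletion the authors' deposited table has 15 of 63732 pairs above 0.

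Contacts on one side were not level next to the junction. The 500 kb upstream of the deletion met the 500 kb before them with 61496 counts in WT and 114147 in DelBs, a ratio of 1.24 (1.23 to 1.25), and met themselves at 1.14 times WT (1.13 to 1.15). Both values equal the highest over all such placements on one side of the deletion, of which there were 655 and 755 overlapping ones with medians of 1.02 and 0.976. DelB gave 1.20 and 1.15 for the same stretches. The 100 kb window next to the deletion, 76290001 to 76390000, had 1.25 times its WT contacts with partners 20 kb to 1 Mb away on its own side (1.24 to 1.27), and the first window downstream had 1.13 times (1.11 to 1.15). Farther downstream the ratio fell to 0.815 in the window 900 to 1000 kb from the junction. Counted over all partners, the deleted interval included, the 10 upstream windows stood at 0.816 to 0.895 of WT. The part of this unevenness in the ratios across the deletion was not tested. Scaling by the total of all counts raises each ratio by 0.40 on the log2 scale, and all 20 windows then lie above 1.

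**Figure D5:**
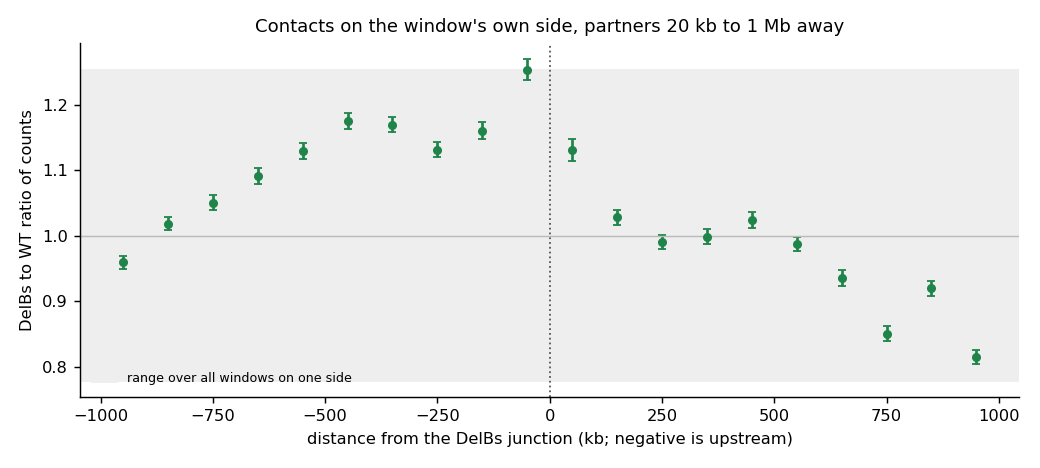
DelBs to WT ratio of counts for 100 kb windows with partners 20 kb to 1 Mb away on the window's own side (vertical) against the distance from the DelBs junction in kb, upstream negative; bars are exact counting intervals and the grey band is the range over all 835 overlapping windows on one side. The window next to the deletion upstream has the highest ratio, 1.25, and the downstream windows fall to 0.815; with scaling by the total of all counts all 20 windows lie above 1.

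The DelB allele, which lacks the segment, was higher in contacts with sequence beyond it. At a remaining distance of 210 to 500 kb on each allele, upstream bins met this sequence at 1.52 times the expected level in DelB (1.51 to 1.54). The DelBs value was 0.611 (0.598 to 0.624). At 510 to 1000 kb these values were 2.16 and 1.24. The same distance joins different bins on the 2 alleles, since the sequence beyond lies 200 kb nearer in DelB.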

How the data were processed

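Per the labels' protocols, limb cells were fixed with formaldehyde and ligated fragments were captured with custom probes and sequenced. The submitters' processing notes name Bowtie2 2.2.6 and mm9. The authors deposited raw counts for each pair of 10 kb bins (mapping quality 30 per the file names). They also deposited a KR-balanced signal, used here as an alternative, and a difference score of DelBs against WT whose calculation no source used here states. Removal of PCR duplicates is not stated either, so intervals cover counting error alone.

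Values were computed with numpy 2.4.6 and scipy 1.17.1 in Python 3.11.15, and drawn with matplotlib 3.10.9. The deletion was taken as the longest stretch of bins below 10% of their WT share. Intervals are exact conditional binomial ones for ratios and exact Poisson ones for observed over expected. Intervals of equal-distance ratios use the variance of Poisson counts on the log scale. The expected level takes one-side pairs at each distance, with at least 5 pairs. Coverage factors were fitted on one-side pairs 20 kb to 500 kb apart. For segment bins before the border most of these pairs span it, so the factor takes in insulation as well as coverage. Blocks of 100 kb were split at the ends of the deletion and the segment and needed 50 counts in 1 library, with a pseudocount of 1. Regions were named by rule: intervals, flanks, WT borders within 1 Mb, the 5 highest and 5 lowest blocks of 50 kb with an expected count of at least 50, and the highest and lowest single bins. Borders are minima within 50 kb. The windows, intervals and lists were chosen with earlier results of these data known. The functions were tested on simulated data. There were 0 columns left without a sample.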

Additional observations from a re-analysis of the deposited data

How the results depend on the processing

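The ratio of DelBs to WT stayed above 1 in all 6 alternatives run for each partner of the upstream flank, with 4.05 as reported for the segment and 3.33 beyond it. Scaling by the total of all counts gave 5.36 and 4.41. Flanks of 250 kb gave 4.66 and 3.22, and a flank of 100 kb gave 6.02 for the segment. Leaving out the bin on each side of the junction gave 3.78 for the segment.

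Observed over expected in DelBs changed side. Flanks of 250 kb gave 0.947 for the segment and 0.647 beyond, flanks of 100 kb gave 0.802 and 0.505, and KR-balanced values gave 0.920 and 0.861. The coverage factor gave 1.03 and 0.836. An expected level from the upstream side alone gave 1.14 and 1.00, and from the downstream side alone 1.53 and 1.17. Leaving out the junction bins gave 1.07 beyond the segment. Neither value is therefore settled as an excess or a deficit; the cause was not tested.

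The equal-distance ratio of segment to beyond stayed above 1 in all 10 alternatives. It was 1.92 with 250 kb, 1.17 with 100 kb, 1.94 with KR-balanced values and 2.54 with distances up to 500 kb. In alternatives chosen after seeing the data it was 2.52 with the coverage factor and 1.51 over the same upstream bins, each partner against its expected level. The limit of 2 Mb is the same fit by construction, as no shared distance exceeds 690 kb. No paired analysis was possible because each genotype has 1 library.

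The 208 higher blocks across the deletion became 401 with total scaling, 683 with blocks of 50 kb and 51 with blocks of 200 kb. With each distance matched they became 0, of the 713 blocks that have an expected level. The 2 blocks on one side that passed the limit became 34, 12, 0 and 3 in the same order. Depth limits pairs over 2 Mb apart, where WT averaged 0.814 counts per pair with the segment at 2010 to 3000 kb.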

Other observations

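Within the 500 kb beyond the segment, the 4 bins from 78440001 to 78480000, just before the WT border after 78480000, had the highest ratios of DelBs to WT in contacts with the upstream 500 kb. They were 4.29, 4.80, 4.92 and 5.10, against a median of 3.32 over the 50 bins, from 119 to 210 counts in WT and 908 to 1349 in DelBs. These bins were chosen after their values were seen.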
